A study of Mus musculus with 2 samples.

Results

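Long intergenic noncoding RNAs (lincRNAs) are transcripts longer than the small RNA classes that come from loci outside protein-coding genes and carry no long open reading frame. They are spliced and polyadenylated much like mRNAs. Some stay in the nucleus, some bind proteins or microRNAs in the cytoplasm, some are the primary transcripts of microRNAs or small nucleolar RNAs, and many start next to a developmental regulator whose product is known in the embryonic brain. The genes described here were those that GENCODE M21 types as lincRNA, lie on an autosome and had a mean of 5 TPM or more (a level corrected for transcript length and library size) over both deposited libraries. The imprinted genes Meg3, Rian, Mirg, H19 and Peg13 were left out. The genes were thus chosen by their measured TPM, and their levels are given as a description. The rule found 97 genes among 2131 autosomal, non-imprinted lincRNA genes measured and among 43346 Ensembl genes in the deposited tables. It left out 5 genes on X or Y and 3 imprinted genes that reached the same level.

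The samples were hindbrains of healthy B6NCrl embryos of both sexes, taken on embryonic day 16.5 and profiled by total RNA-seq in 1 group of 2 biological replicates. Each replicate was tissue pooled from several embryos (37 embryos in replicate 2, while the labels leave the number open for replicate 1), and RNA over 200 bases went into the libraries from 10 ng of starting material. No embryo was treated, and there is no contrast between conditions, so everything below describes levels, their spread between both pools and the position of the genes. With 2 libraries no permutation test can give a p below 0.5, and none is reported.

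Both libraries held similar numbers of assigned reads, 41543180 and 41346951 expected counts over genes. The 5 Hox genes used as hindbrain markers were at 1 TPM or more in both replicates. The replicates were not equal in other tissue markers. The 2 meninges markers summed to 485.99 TPM in replicate 1 and 243.61 TPM in replicate 2. The 3 red blood cell markers summed to 6650.6 and 5636.2 TPM, and the 2 choroid plexus markers to 1473.1 and 1833.0 TPM. The 6 forebrain markers summed to 17.01 TPM in replicate 1 and 0.2 TPM in replicate 2, with 0 of 6 at 1 TPM or more in both, and the 6 skeletal muscle markers summed to 190.1 and 3.8 TPM, with 2 of 6 at that level in both. The part of these cells in any difference between replicates described below was not tested. In bulk tissue, fewer cells that express a gene and less RNA per cell cannot be told apart.

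Among the 97 genes, 6 carry an entry of the RefSeq microRNA table on their own strand, and mature sequences from each of these gene bodies are shown here. Those of Mir3093, which lies in Gm3764, and of Mir670, which lies in Mir670hg, are not shown. A gene body can hold a microRNA that its measured transcripts do not span, and the levels below give both. There are 3 loci for miR-9, a microRNA best known from neural progenitors: Gm3764 holds Mir9-1 (chr3:88215613-88215635 for the 5′ arm, GRCm38.p6, plus strand), C130071C03Rik holds Mir9-2 (chr13:83738821-83738843, plus) and Mir9-3hg holds Mir9-3 (chr7:79505279-79505301, plus). Both arms of miR-9, those of miR-129 and miR-6516, and miR-1839 are shown 5′ to 3′ with the seed, bases 2 to 8, in capitals (RefSeq, GRCm38.p6).
miR-9-5p: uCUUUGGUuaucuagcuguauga
miR-9-3p: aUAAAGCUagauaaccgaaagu
miR-129-5p: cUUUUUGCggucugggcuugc
miR-129-2-3p: aAGCCCUUaccccaaaaagcau
miR-6516-5p: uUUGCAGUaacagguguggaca
miR-6516-3p: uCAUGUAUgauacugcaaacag
miR-1839-5p: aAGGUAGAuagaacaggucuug
The 15 entries on the strand of a host came to 11 distinct mature sequences with 11 distinct seeds, so no seed was shared except through the 3 copies of miR-9.

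A second set of sequences belongs to genes that start back to back with a coding gene so that a single window holds both starts. The 300 bases from 250 before to 50 after the RefSeq start of the lincRNA gene are shown on its own strand, with capitals from the first base of the coding gene, which runs the other way, to the first base of the lincRNA gene (RefSeq, GRCm38.p6). They were chosen because the level of the lincRNA relative to its partner ranged over these pairs from above it, through close to it, to far below it. Lhx1os lies beside Lhx1 (chr11:84525410-84525709, plus), Gm5113 beside Zfp146 (chr7:30169625-30169924, plus), C030037D09Rik beside Msi2 (chr11:88718393-88718692, plus) and Gm13830 beside Dynll1 (chr5:115300870-115301169, plus).
Lhx1os: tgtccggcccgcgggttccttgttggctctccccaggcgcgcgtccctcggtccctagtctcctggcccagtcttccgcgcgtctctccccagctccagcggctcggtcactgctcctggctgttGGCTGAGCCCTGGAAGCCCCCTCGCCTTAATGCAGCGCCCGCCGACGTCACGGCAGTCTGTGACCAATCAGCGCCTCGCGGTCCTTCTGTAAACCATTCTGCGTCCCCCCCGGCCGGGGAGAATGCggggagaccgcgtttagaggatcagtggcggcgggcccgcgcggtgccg
Gm5113: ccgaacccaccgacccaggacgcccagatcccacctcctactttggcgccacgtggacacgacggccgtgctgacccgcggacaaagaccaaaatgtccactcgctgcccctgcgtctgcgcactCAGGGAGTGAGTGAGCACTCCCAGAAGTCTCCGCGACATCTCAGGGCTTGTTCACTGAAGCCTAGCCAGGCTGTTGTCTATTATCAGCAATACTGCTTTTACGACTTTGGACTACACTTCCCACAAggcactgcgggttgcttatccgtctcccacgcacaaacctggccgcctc
C030037D09Rik: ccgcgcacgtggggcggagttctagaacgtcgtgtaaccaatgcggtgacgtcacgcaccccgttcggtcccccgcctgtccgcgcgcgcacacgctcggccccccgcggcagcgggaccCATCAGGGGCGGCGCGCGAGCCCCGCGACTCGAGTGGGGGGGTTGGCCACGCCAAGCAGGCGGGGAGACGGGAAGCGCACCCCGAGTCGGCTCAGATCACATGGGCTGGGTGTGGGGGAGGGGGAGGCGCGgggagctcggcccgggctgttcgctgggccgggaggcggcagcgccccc
Gm13830: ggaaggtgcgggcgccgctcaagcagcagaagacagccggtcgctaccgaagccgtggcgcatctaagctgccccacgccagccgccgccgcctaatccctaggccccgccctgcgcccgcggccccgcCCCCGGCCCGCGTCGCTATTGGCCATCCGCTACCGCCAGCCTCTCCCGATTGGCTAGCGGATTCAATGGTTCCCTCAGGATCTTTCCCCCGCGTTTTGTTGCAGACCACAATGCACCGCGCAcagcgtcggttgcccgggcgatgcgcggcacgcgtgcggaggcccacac
The stretch in capitals, both start bases included, was 126 bases for Lhx1os, 126 for Gm5113 and 122 for Gm13830, and that of C030037D09Rik was of similar length. The RefSeq start used for C030037D09Rik lies 2 bases from its GENCODE start. All 4 windows were rich in G and C, at 69.3%, 59.0%, 75.7% and 70.0% in that order, and held 33, 20, 42 and 38 CG dinucleotides. Of the 97 genes, 55 matched a RefSeq promoter window, and on either strand 28 of the 55 (50.9%) held the GC box letters GGGCGG or CCGCCC, which occur in 35.7% of all 32851 windows of the table. The CCAAT box letters CCAAT or ATTGG were in 24 (43.6%, against 37.4% of all windows), and the TATA box letters TATAAA or TTTATA were in 5 (9.09%, against 13.6%). These are matches of letters and not sites of binding.

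The levels were very unequal. Above 1000 TPM lay 3 genes, 8 genes in all reached 100 TPM, 49 lay between 10 and 100 TPM and 40 lay below 10 TPM. The median of the 97 mean levels was 12.12 TPM, against 27.26 TPM over the 11112 protein-coding genes that passed the same limit. Together the genes held 1.006% of all TPM in replicate 1 and 1.119% in replicate 2. Between replicates the levels kept their order, with a Spearman rho of 0.958 over the 97 genes, a description of 2 libraries of the same tissue and age. In all, 91 genes reached 5 TPM in each replicate separately, and 92 had 100 expected counts or more in both. The genes just inside the limit were Gm16001 at 5.185 TPM, Gm26803 at 5.075 TPM and Gm17322 at 5.01 TPM. Just outside were Gm10479 at 4.875 TPM, Fam120aos at 4.865 TPM and A430046D13Rik at 4.84 TPM. The remaining 2034 autosomal lincRNA genes included 887 listed at 0 in both replicates.

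**Figure D1:**
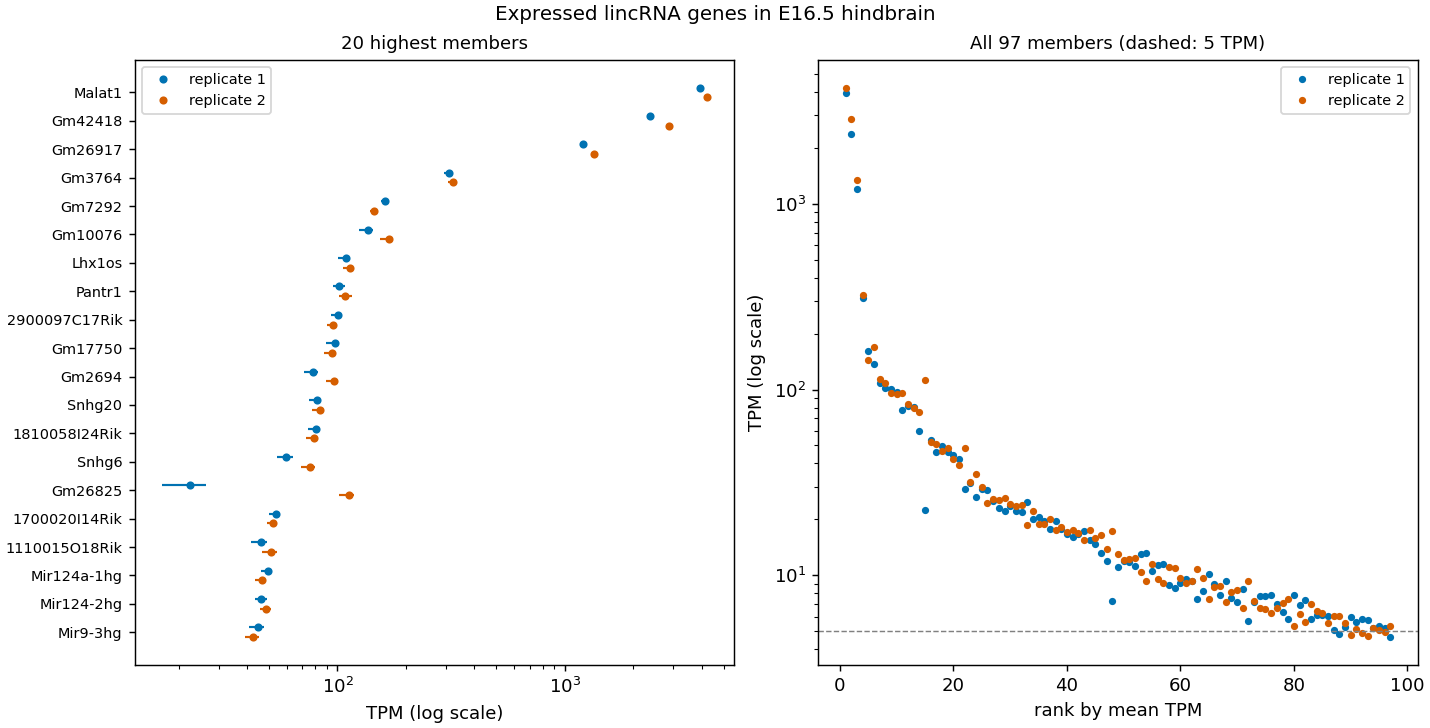
TPM on a log scale of the 20 highest genes (left; points are the deposited TPM, lines the deposited interval) and of all 97 genes by rank of their mean (right; the dashed line marks 5 TPM), with replicate 1 in blue and replicate 2 in orange. Above 1000 TPM lie 3 genes, and Gm26825 is the gene of the 20 whose replicates stand farthest apart, at 22.39 TPM in replicate 1 and 112.66 TPM in replicate 2.

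Malat1, the nuclear RNA that accumulates in splicing speckles (chr19:5795690-5802672, minus strand), had 3937.93 TPM in replicate 1 and 4219.17 TPM in replicate 2, the highest level of the 97 genes. Its share of their summed TPM was 39.14% in replicate 1 and 37.69% in replicate 2. Its share of their expected counts was much smaller, 12.84% and 12.25%. The gap between both shares goes with the transcript to which the reads were assigned. A transcript of 485 bases (ENSMUST00000173499; exons at chr19:5801916-5801966 and chr19:5802238-5802671, the 5′ end of the gene) held 99.44% of the gene's TPM in replicate 1 and 99.42% in replicate 2. The 6983-base transcript that spans the gene had 22.12 and 24.3 TPM. Divided by its short length, the reads of the short transcript gave most of the TPM, and with reads per kilobase of each gene's longest deposited transcript the share of Malat1 among the 97 genes was 4.343%. Gm37376, a gene of the GENCODE type TEC (a locus still to be tested by experiment) on the opposite strand (chr19:5801941-5802393), overlaps the same exons. It was listed at 1612.22 TPM in replicate 1 and 1611.65 TPM in replicate 2, and its posterior SD of the count, 32.59 and 32.85 counts, was nearly that of Malat1, 32.61 and 32.84 counts. No source used here gives the strand setting of the authors' counting, and without strand the reads of both genes cannot be told apart.

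Next in level were Gm42418 and Gm26917, neighbours on the plus strand of chromosome 17 (chr17:39846958-39848788 and chr17:39843013-39846341). Gm42418 had 2365.38 TPM in replicate 1 and 2872.17 TPM in replicate 2, and Gm26917 had 1198.15 and 1343.15 TPM. Both were on a list of genes known to overlap ribosomal RNA repeats. RefSeq names Gm42418 Rn18s-rs5, an 18S ribosomal RNA related sequence, and types it as a pseudogene, and 96.3% of its 31-mers (stretches of 31 bases) are shared with a gene that GENCODE types as rRNA on the opposite strand. Gm26917 shared 0.0% of its 31-mers with other genes, so this measure gives no such overlap for it. The measure covers GENCODE M21 transcripts, while the authors counted on GENCODE M4, so partners present only in M4 are not seen. The posterior SD of the count of Gm26917 was 241.72 counts in replicate 1 and 260.06 in replicate 2, 0.25% and 0.23% of the count. Both together held 61.48% of the expected counts of the 97 genes in replicate 1 and 63.87% in replicate 2. With Malat1 they held 74.56% and 75.34% of the summed TPM. Outside these 3 genes the summed level was 2559.44 TPM in replicate 1 and 2760.43 TPM in replicate 2.

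The microRNA hosts ranged from rank 4 to rank 46 of the 97 genes. GENCODE places a microRNA gene on the strand of 8 of the 97 genes, the 6 with sequences above and both hosts of miR-124, the microRNA best known from differentiated neurons. Gm3764, the Mir9-1 host (chr3:88206813-88229959, plus), had 309.48 TPM in replicate 1 and 321.72 TPM in replicate 2. Mir9-3hg (chr7:79500026-79534403, plus) had 44.62 and 42.52 TPM, and C130071C03Rik, the Mir9-2 host (chr13:83721381-83884194, plus), had 31.44 and 31.93 TPM. As whole genes the 3 hosts of miR-9 differed from each other by more than their replicates did, with Gm3764 highest in both replicates, but most of that level lay on transcripts away from the microRNA. The 5 of 11 Gm3764 transcripts that span Mir9-1 summed to 27.35 TPM in replicate 1 and 24.14 TPM in replicate 2, 8.84% and 7.5% of the gene. Transcripts that span Mir9-3 summed to 16.58 and 13.39 TPM, and those that span Mir9-2 to 17.78 and 14.97 TPM. Counted this way Gm3764 was still highest in both replicates by a smaller margin, and Mir9-3hg was below C130071C03Rik. The hosts of miR-124 were nearly level with each other as whole genes. Mir124a-1hg, also known as Rncr3 (chr14:64587331-64593961, plus), had 49.64 and 46.62 TPM, and Mir124-2hg (chr3:17789921-17808970, plus) had 46.19 and 48.33 TPM. The order of these 2 hosts differed between the replicates. On transcripts that span the whole miR-124 gene, however, Mir124a-1hg had 28.82 TPM in replicate 1 and 24.69 TPM in replicate 2, and Mir124-2hg had 12.01 and 12.68 TPM. This gap depends on 1 annotated start. The leading transcript of Mir124-2hg, at 31.19 and 31.48 TPM, starts at chr3:17795744, inside Mir124a-2 (chr3:17795662-17795770), and was therefore not counted as spanning it.

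The other microRNA hosts were lower, except Snhg20. Snhg20, which holds Mir6516 and also a small nucleolar RNA gene (chr11:117076008-117078955, plus), had 81.38 TPM in replicate 1 and 83.71 TPM in replicate 2. 2900076A07Rik, which holds Mir1839 (chr7:81523550-81531498, plus), had 22.15 and 23.62 TPM. Mir670hg, whose gene body holds Mir129-2 and Mir670 (chr2:94160636-94264918, minus), had 13.17 and 16.47 TPM. Both of its deposited transcripts span Mir670 and neither spans Mir129-2, so its level is not that of a measured transcript across miR-129. RNA under 200 bases was not in the libraries, so the mature microRNAs themselves were not measured. Of the 10 listed microRNA hosts, 3 were among the 97 genes, 4 were lincRNA genes below 5 TPM, 2 had another gene type and 1 was not analysed here. Among the 4 below the limit, Mir17hg, the host of the miR-17 cluster, had 1.25 TPM in replicate 1 and 1.05 TPM in replicate 2.

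Hosts of small nucleolar RNAs, which guide chemical changes of ribosomal and spliceosomal RNA, formed a further class. GENCODE places a small nucleolar or Cajal-body RNA gene on the strand of 6 of the 97 genes: Snhg20, Snhg6, 2900076A07Rik, Snhg12, Epb41l4aos and 2700038G22Rik. Snhg6, which holds Snord87, had 59.49 TPM in replicate 1 and 75.61 TPM in replicate 2, and the deposited intervals of its replicates did not overlap. Snhg12, which holds Snora16a, Snora44, Snora61 and Snord99, had 16.65 and 16.83 TPM, with overlapping intervals. Of the 15 hosts on the list, 3 were among the 97 genes, 1 was a lincRNA gene below the limit (Snhg18, 4.32 and 3.15 TPM), 8 had another gene type and 3 were not analysed here. Gas5, which GENCODE types as a processed transcript, had 290.63 TPM in replicate 1 and 296.79 TPM in replicate 2.

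Known cytoplasmic and nuclear regulators covered a wide range. 1700020I14Rik, the mouse Cyrano RNA that directs the decay of miR-7 (RefSeq Oip5os1; chr2:119594297-119607502, plus), had 53.4 TPM in replicate 1 and 52.22 TPM in replicate 2. Its 8300-base transcript held 92.19% and 92.98% of its reads. 2900097C17Rik, which RefSeq names Norad and which binds Pumilio proteins (chr2:156388065-156392979, minus), had 100.54 and 95.55 TPM. Norad shares sequence with Gm7292, a gene on another chromosome (chr6:117716342-117718868, plus) with 162.0 TPM in replicate 1 and 144.7 TPM in replicate 2: 85.9% of the 31-mers of Gm7292 are shared with Norad on the same strand. Both had the same posterior SD of the count, 34.44 counts in replicate 1 and 34.41 in replicate 2. That SD was 0.35% and 0.38% of the count of Gm7292 and 1.3% of that of Norad in both replicates. The deposited Norad transcripts were 1149 and 339 bases long, while its GENCODE M21 transcripts held 4885 distinct 31-mers. Where reads from the rest of Norad were assigned was not tested, and the SD does not cover this. Miat, also called Gomafu, a nuclear RNA of neurons (chr5:112213228-112229395, minus), had 28.93 and 24.47 TPM. Pvt1, the neighbour of Myc (chr15:62037986-62378096, plus), had 6.37 and 7.08 TPM. Neat1, the scaffold of paraspeckles, was below the limit with 2.57 TPM in replicate 1 and 2.85 TPM in replicate 2.

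Neural development genes on the list were split by gene type in the annotation. Of 14 listed genes, 3 were among the 97 genes (Lhx1os, Pantr1 and Miat), 2 were lincRNA genes below 5 TPM, 5 had another gene type and 4 were not analysed here. Paupar, known beside Pax6, had 0.29 TPM in replicate 1 and 0.48 TPM in replicate 2, and Lncpint had 0.19 and 0.73 TPM. The Hox-linked list had no member among the 97 genes: Hotair and Hottip were listed at 0 in both replicates, Halr1 had 0.97 and 2.18 TPM, and the other 5 of its 8 genes have another gene type. Hotairm1, typed as antisense, had 24.16 TPM in replicate 1 and 30.98 TPM in replicate 2.

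The rest of the 20 highest genes were less studied. Gm17750 (chr13:84025297-84064772, minus) had 97.19 TPM in replicate 1 and 94.94 TPM in replicate 2 and no 31-mer in common with another gene. Gm2694 (chr8:87460469-87525554, plus) had 77.93 and 96.21 TPM, and its GENCODE M21 gene body overlaps Cbln1, a synapse organiser of the cerebellum, on the opposite strand. Its deposited transcripts all start at chr8:87472812 or beyond, and whether they themselves overlap Cbln1 was not examined. 1110015O18Rik (chr3:4797558-4814911, plus) had 46.13 and 51.21 TPM. The replicates of Gm17750 and 1110015O18Rik overlapped in their deposited intervals, and those of Gm2694 did not. 1810058I24Rik (chr6:35252654-35263496, plus) had 80.59 TPM in replicate 1 and 79.17 TPM in replicate 2, and it is a gene whose class depends on the annotation: RefSeq types it as protein-coding. The same holds for Tmem250-ps and Dbpht2. A RefSeq gene was matched by 73 of the 97 genes, 66 of them typed as lncRNA, 3 as protein-coding and 4 as a pseudogene, transcribed or not.

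Gm10076 (chr14:105681828-105682211, plus), at 136.83 TPM in replicate 1 and 168.97 TPM in replicate 2, is 1 of those pseudogenes. It shares 82.2% of its 31-mers with Rpl41, a ribosomal protein gene at 1683.47 and 1752.24 TPM, on the same strand. The posterior SD of its count was 1.82% of the count in replicate 1 and 1.70% in replicate 2. Whether the model divided the shared reads correctly was not tested.

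Shared sequence of this kind was searched for in all 97 genes, since the deposited counts were divided by a model among genes that share reads. A median of 5.84% of the 31-mers of a gene occurred in GENCODE M21 transcripts of other genes on either strand. The share was under 10% in 58 genes, 10 to 50% in 24 and 50% or more in 15. In 11 of these 15 the gene with most shared 31-mers overlaps on the opposite strand, in 3 it lies elsewhere and in 1 it overlaps on the same strand. The deposited uncertainty was set beside this share, and no correlation was computed. A high share did not always go with a high SD. Gm42418, with 96.3% shared, had a posterior SD of 0.009% of its count in replicate 1 and 0.006% in replicate 2. Gm26699, with 98.5% shared, had 1.07% and 1.05%. The posterior SD of the count was 0 in both replicates for 52 genes, none of which had 50% or more shared. It reached 5% of the count in either replicate for 7 genes, and 6 of these had 50% or more shared. The exception was Gm26804, with no 31-mers shared with M21 transcripts of other genes and an SD of 4.61% in replicate 1 and 6.23% in replicate 2. Partners present only in GENCODE M4, on which the authors counted, were not searched.

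**Figure D2:**
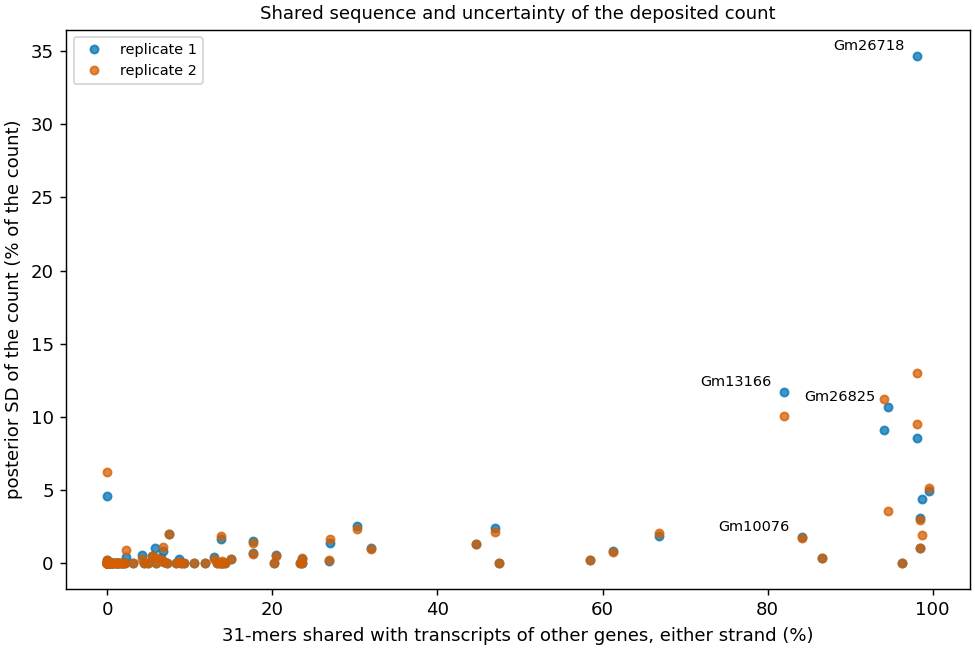
Posterior SD of the deposited count as a percent of that count (vertical) against the percent of a gene's 31-mers found in transcripts of other genes on either strand (horizontal), for the 97 genes in replicate 1 (blue) and replicate 2 (orange). All but 1 of the 7 genes that reach 5% lie at 50% or more shared, with Gm26718 highest at 34.7% in replicate 1 and 13.0% in replicate 2.

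With a coding gene on the opposite strand 8 of these genes share 50% or more of their 31-mers, and 7 of the 8 overlap that gene. Gm26718 (chr5:110259163-110269847, plus) shares 98.1% with Pgam5, a mitochondrial phosphatase, Gm26735 (chr13:28943048-28951671, plus) 98.7% with Sox4, a transcription factor of immature neurons, and Gm28592 94.1% with Phlda1. Gm26751, Gm26699, Gm26883 and Gm5914 share 99.5%, 98.5%, 98.5% and 66.8% with Nynrin, Luc7l2, Tshz2 and Ctcf. Gm26825 (chr5:5781530-5783636, plus) shares 87.0% with Hspa8, a heat shock protein gene elsewhere in the genome at 2839.5 TPM in replicate 1 and 2752.22 TPM in replicate 2, and more with Gm15459, a processed pseudogene that it overlaps. In every one of the 8 pairs the coding gene had the higher TPM in both replicates.

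Between replicates most genes differed little. The log2 ratio of replicate 1 over replicate 2, on counts scaled by the trimmed mean of M-values (TMM), had a median of -0.09 over the 97 genes, against 0.0045 over all 11833 genes of 5 TPM or more. Higher in replicate 1 were 36 genes, and 61 were higher in replicate 2. An interval of counting error alone excluded equal levels for 44 of the 97 genes. The same counts over all genes were not computed, so nothing is read from them. The median size of the ratio regardless of sign was 0.16, against 0.12 over all genes of that level. Within 1.5-fold lay 93 of the 97 genes (95.9%), close to the 96.0% of all genes. The deposited TPM intervals of the replicates did not overlap for 23 genes (23.7%), 10 of them higher in replicate 1 and 13 higher in replicate 2, against a background of 35.0% of all genes of 5 TPM or more. These shares lie near or below the background, and intervals of this kind hold the uncertainty of read assignment and sampling but not that between embryos.

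The genes over 2-fold apart were 2 (2.06%), where the background was 1.99% of all genes, 2 being higher in replicate 2 (background 1.39%) and 0 higher in replicate 1 (background 0.608%). Gm26825 had 22.39 TPM in replicate 1 and 112.66 TPM in replicate 2, a log2 ratio of -2.38 with a 95% counting interval of -2.48 to -2.29. Gm26718 had 7.26 and 17.31 TPM, a log2 ratio of -1.30 with an interval of -1.53 to -1.08. Their coding partners did not show this difference: the log2 ratio was -0.0004 for Hspa8 and 0.07 for Pgam5. Gm15459, which shares most with Gm26825, had 184.57 counts in replicate 1 and 119.53 in replicate 2. Summed over both genes of a pair, the counts had a log2 ratio of -0.06 for Gm26825 with Hspa8 and -0.04 for Gm26718 with Pgam5. Gm26825 held 1082.89 of 107617.18 summed counts in replicate 1 and 5583.95 of 111080.63 in replicate 2. Each sum is mostly counts of the coding gene and moves little with the lincRNA gene, so nothing is read from it about shared reads. Among the 82 genes with under 50% shared none was over 2-fold apart, and their log2 ratios ran from -0.76 to 0.51.

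Only 2 further genes were over 1.5-fold apart, and both lie in the neighbourhood of a Sox gene of the SoxC family, which is known from immature neurons. Gm26735, antisense to Sox4, had 29.07 TPM in replicate 1 and 48.53 TPM in replicate 2 (log2 ratio -0.79), while Sox4 had 86.93 and 53.86 TPM (log2 ratio 0.64). Here the summed counts had a log2 ratio of 0.31, and most of these counts were those of Sox4. Gm9866, whose nearest coding gene is Sox11 at 173631 bases (chr12:27050950-27160633, minus), had 5.67 and 9.3 TPM (log2 ratio -0.76, counting interval -0.999 to -0.53), while Sox11 had 199.94 TPM in replicate 1 and 149.96 TPM in replicate 2. A330102I10Rik, which lies head to head with Sox4 at 60686 bases and has no shared 31-mers, had 26.5 and 35.2 TPM (log2 ratio -0.48). In all 3 cases the lincRNA gene was higher in replicate 2 and the Sox gene higher in replicate 1. These 3 were singled out after their values were seen. Gm26735 and A330102I10Rik were both set against Sox4, and Gm26735 shares 98.7% of its 31-mers with it. Over all 97 genes, 61 were higher in replicate 2. No relation between these lincRNA genes and the Sox genes was tested.

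**Figure D3:**
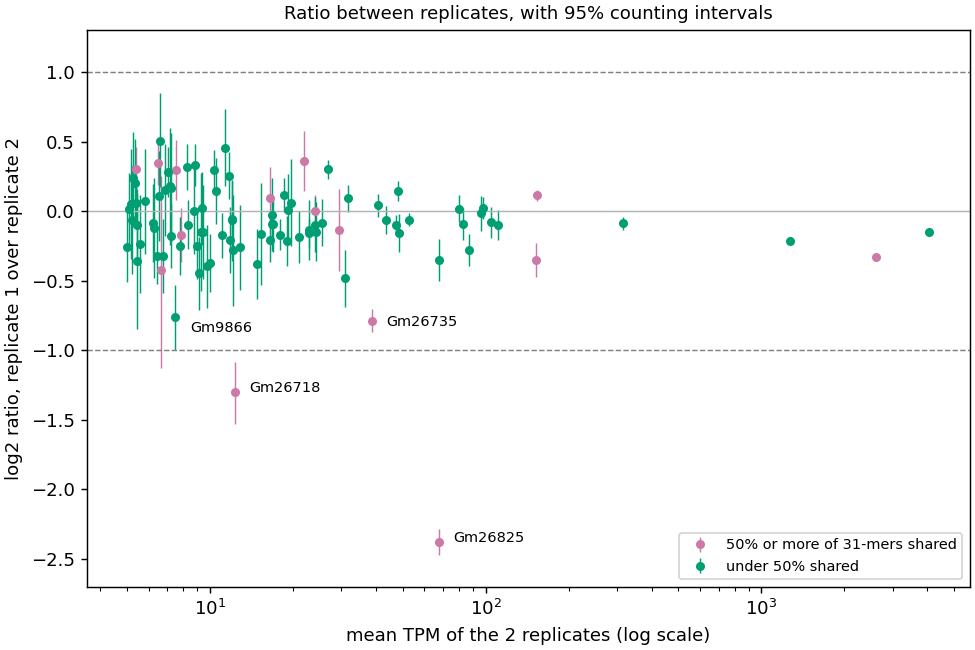
Log2 ratio of replicate 1 over replicate 2 on TMM-scaled counts (vertical, with exact 95% counting intervals) against mean TPM on a log scale (horizontal) for the 97 genes, in pink where 50% or more of the 31-mers are shared with other genes and in green otherwise; dashed lines mark a 2-fold difference. Gm26825 at -2.38 and Gm26718 at -1.30 lie below the lower line, and both are pink.

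Many of these genes lie close to a coding gene. The median distance between a gene and its nearest protein-coding gene was 1810 bases over the 97 genes, against 24632 bases over the 2034 lincRNA genes below 5 TPM. A coding gene was overlapped by 25 of the 97 genes, 57 (58.8%) lay within 5 kb of one, overlaps included, 28 lay at 5 to 100 kb and 12 farther away. Within 5 kb lay 31.3% of the lincRNA genes below the limit. Position was not used to choose the genes, and no test of these shares was made. The median span in the genome was 10170 bases for the 97 genes and 6788 bases for the others. A single annotated exon was found in 12 (12.4%) of the 97 genes and in 5.9% of the others.

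Relative to the nearest coding gene the levels fell to both sides. Of the 97 genes 49 had the higher mean TPM, where 7.78% of the 2109 autosomal lincRNA genes with a measured neighbour did. Since the rule chose genes for their level, nothing is read from this difference. By intervals that did not overlap in either replicate, 46 genes were above their neighbour (background 3.65%), 45 were below it (background 78.9%) and 6 were neither. A neighbour at 1 TPM or more in both replicates was found for 82 genes, and the median level of the 94 distinct neighbours was 18.97 TPM. The same share over other coding genes was not computed, so nothing is read from this count. The levels of a gene and its neighbour showed no common order, with a Spearman rho of -0.093 over the 97 pairs. Gm3764 stood far above Rhbg, an ammonium transporter gene at 0.44 TPM in replicate 1 and 0.82 TPM in replicate 2, and Mir124-2hg lay beside Cypt12, which was listed at 0 in both.

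**Figure D4:**
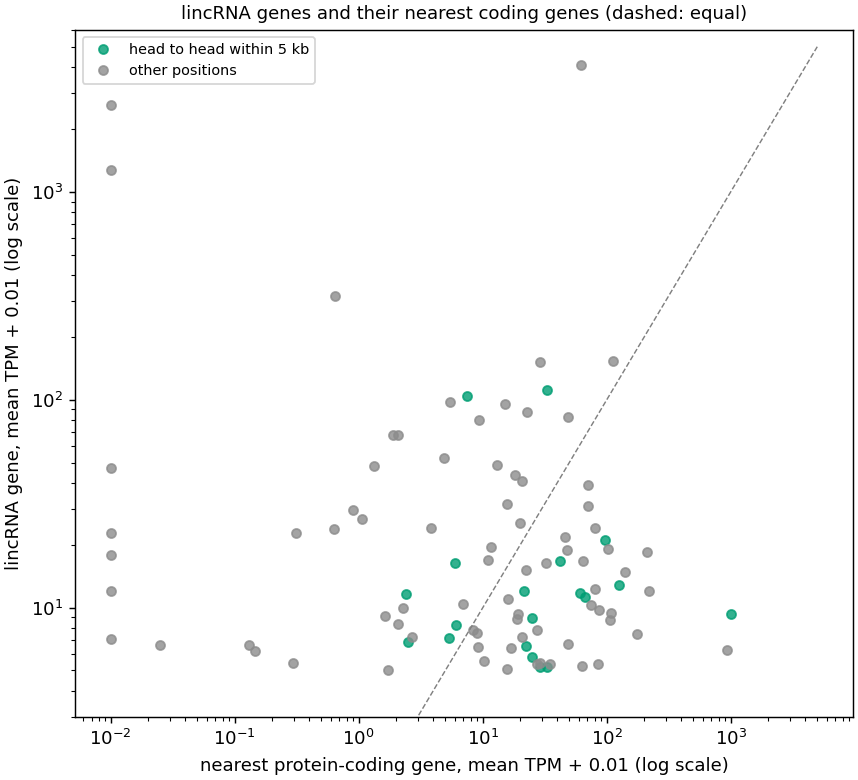
Mean TPM of the 97 lincRNA genes (vertical) against that of their nearest protein-coding gene (horizontal), both with 0.01 added and on log scales, in green for genes that start head to head within 5 kb and in grey for other positions; the dashed line marks equal levels. The points scatter on both sides of the line, with 49 genes above it, and those at the left edge have a neighbour listed at 0.

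Head-to-head starts, in which the lincRNA gene and its nearest coding gene run away from each other from starts within 5 kb, were found for 19 of the 97 genes (19.6%). The background was 9.39% of all autosomal lincRNA genes measured and 8.9% of those below 5 TPM; the difference was not tested. The starts were 33 to 1219 bases apart with a median of 172 bases, and 13 of the 19 pairs lay within 250 bases. By intervals in both replicates the lincRNA gene was above its partner in 5 pairs, below it in 12 and neither in 2. Over all autosomal lincRNA genes with a measured neighbour, in any position, 3.65% were above it and 78.9% below it. The same calls over other head-to-head lincRNA genes were not made. Since the rule chose genes for their level, nothing is read from these counts.

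The 2 highest lincRNA genes of these pairs stood beside transcription factor genes of the developing brain and exceeded them. Lhx1os had 108.55 TPM in replicate 1 and 113.59 TPM in replicate 2, beside 36.17 and 30.16 TPM of Lhx1, a LIM homeodomain factor, and was 3.36-fold higher. Pantr1 (chr1:42590782-42694842, minus) had 101.86 and 108.2 TPM, beside 7.98 and 7.03 TPM of Pou3f3, a POU domain factor of neural progenitors, and was 14.02-fold higher. In both pairs the values of the lincRNA gene and of its partner did not overlap. Between replicates Lhx1os and Pantr1 were slightly higher in replicate 2, with log2 ratios of replicate 1 over replicate 2 of -0.10 and -0.08. Their 95% counting intervals, -0.211 to 0.0098 and -0.195 to 0.033, included equal levels. Both ratios lay close to the median of all lincRNA genes described here, -0.09. Lhx1 and Pou3f3 had the higher TPM in replicate 1, and no opposite movement within these pairs is read from this.

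Above their partner were 3 further lincRNA genes. 2810032G03Rik, beside Klhl29, had 12.98 TPM in replicate 1 and 10.43 TPM in replicate 2, against 2.82 and 1.95 TPM. AI480526 had 17.41 and 15.56 TPM, against 5.91 and 6.08 TPM of Setd1b, a histone H3 methyltransferase. 61.3% of the 31-mers of AI480526 are shared with other genes, and it was the only head-to-head gene with 50% or more. 5930412G12Rik had 7.05 and 6.64 TPM, against 2.6 and 2.39 TPM of Fzd10, a Wnt receptor.

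By intervals in both replicates the partner exceeded its lincRNA gene in 12 pairs. Gm13830 had 9.32 TPM in replicate 1 and 9.3 TPM in replicate 2, beside 976.92 and 1053.3 TPM of Dynll1, a dynein light chain, and was 109-fold lower across 121 bases. Gm5468 had 11.94 and 13.83 TPM and was 9.78-fold lower than Basp1, a membrane protein of growing axons. Both had wide gaps below their partner, and in neither pair did the values of the lincRNA gene and of its partner overlap.

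The gap was narrower elsewhere. Gm12371 was 5.15-fold lower than Lingo2 and 2010320M18Rik was 4.64-fold lower than Pik3r2, a regulatory subunit of phosphoinositide 3-kinase. C030037D09Rik, with 8.26 TPM in replicate 1 and 9.68 TPM in replicate 2, was 2.79-fold lower than Msi2, an RNA-binding protein of neural progenitors, at 24.14 and 25.85 TPM. 5031425E22Rik was 2.52-fold lower than Kmt2e, and Gm15631 was 1.78-fold lower than Cntn4, a neuronal adhesion molecule, with 12.03 ± 0.10 TPM against 21.4 ± 0.45 TPM (SD, n = 2). Gm5113, at 9.29 and 7.21 TPM beside 6.4 and 5.78 TPM of Zfp146, and 5033430I15Rik, at 7.76 and 6.56 TPM beside 5.13 and 5.53 TPM of Atxn1, could not be told apart from their partner by the intervals of both replicates. Across the 19 pairs the levels had a Spearman rho of 0.226. The replicate ratios of both genes had the same sign in 13 of 19 pairs, with no background share computed.

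**Figure D5:**
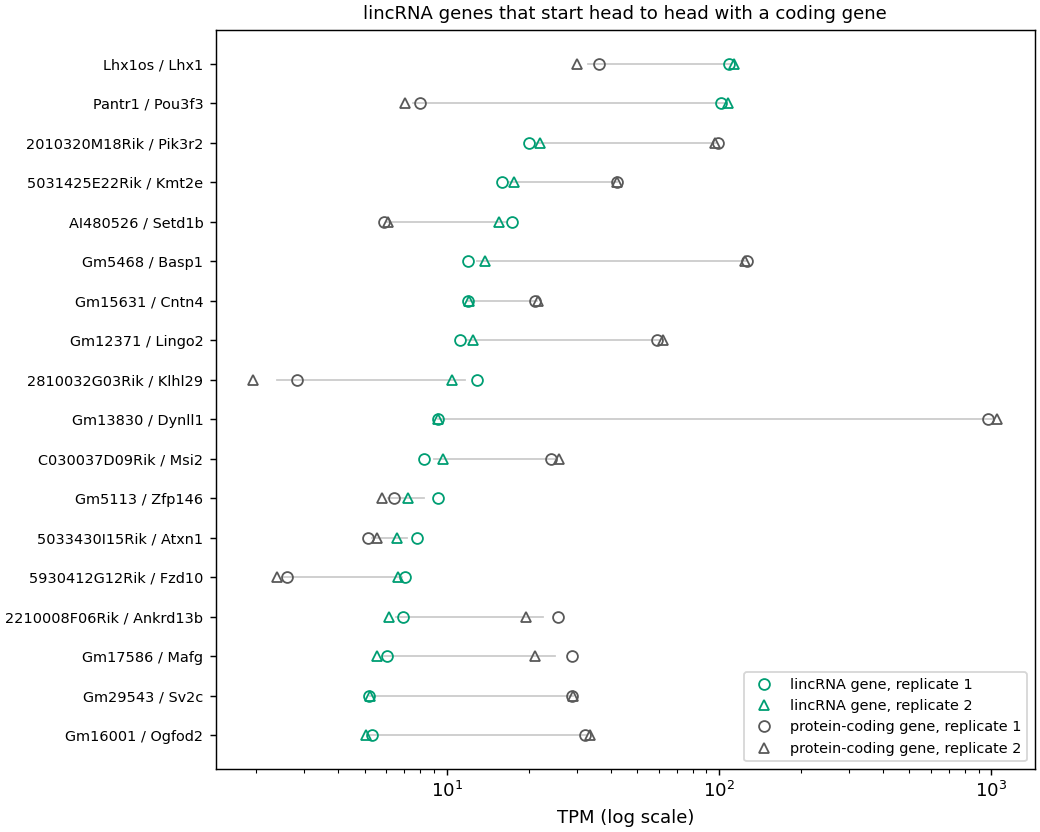
TPM on a log scale of 18 of the 19 lincRNA genes (green) that start head to head within 5 kb of their nearest protein-coding gene and of that gene (dark grey), in replicate 1 (circles) and replicate 2 (triangles), ordered by the level of the lincRNA gene; grey lines join the means. Lhx1os and Pantr1 lie to the right of their partner, and Gm13830 lies farthest to the left of its own, 109-fold below Dynll1.

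Further genes lie beside regulators without starting head to head with them. Lockd, downstream of the cell cycle inhibitor gene Cdkn1b on the same strand (chr6:134929092-134956798, plus), had 20.51 TPM in replicate 1 and 18.93 TPM in replicate 2, beside 12.69 and 10.52 TPM of Cdkn1b. 2700033N17Rik, 379 bases from the homeobox gene Meis2 on the same strand, had 9.07 and 9.73 TPM, beside 110.86 and 106.87 TPM. D930028M14Rik, which overlaps the POU domain gene Pou2f2 on the opposite strand, had 25.25 and 25.85 TPM, beside 23.63 and 16.2 TPM. By the deposited intervals of both replicates Lockd was above its neighbour, 2700033N17Rik below it and D930028M14Rik neither. C130071C03Rik and Gm26803, which overlap in position on opposite strands of chromosome 13, have the same nearest coding gene, Mef2c, a transcription factor of neurons and muscle. C130071C03Rik was above Mef2c, with 31.44 TPM in replicate 1 and 31.93 TPM in replicate 2, and Gm26803 below it, with 5.19 and 4.96 TPM, while Mef2c had 17.72 and 13.78 TPM. Dubr (chr16:50719294-50732773, minus), known from muscle and neuronal differentiation, had 21.82 and 23.93 TPM, and its nearest coding gene, Ccdc54, was listed at 0 in both.

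Transcript shares add to what the gene levels show. Of the 97 genes 59 had 2 or more deposited transcripts, up to 12 per gene. In 16 of the 59 (27.1%) 1 transcript held 90% or more of the gene's TPM, against a background of 23.2% of genes of 5 TPM or more with 2 or more transcripts. In 13 no transcript reached 50%, and the background share for this was not computed. Pantr1, with 12 transcripts, was of the divided kind: its leading transcript of 499 bases held 48.22% in replicate 1 and 48.09% in replicate 2. Lhx1os was divided among 3 transcripts of 589, 599 and 524 bases, at 41.1%, 36.3% and 22.6% in replicate 1 and 34.25%, 35.69% and 30.05% in replicate 2, so its leading transcript differed between replicates. In Miat a transcript of 8758 bases held 61.9% and 56.79% of the TPM but 94.99% and 93.98% of the reads. As in Malat1, shares by TPM and by reads differed where short transcripts were in the model.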

How the data were processed

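Total RNA-seq tables of 2 libraries of mouse hindbrain were used. Per the file headers and notes, the authors quantified each library on mm10 with GENCODE M4; no source used here names the quantification tool, its settings or its strand option. The deposited expected counts are read numbers divided by a model, often fractional. Deposited TPM and FPKM are per effective length, the deposited percent gives the share of a gene's TPM by transcript, and the deposited bounds and posterior SD are treated as a score, since their confidence level is not stated. The deposited TPM lay above its own interval for 4 of the 97 genes in each replicate.

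Gene types, positions and neighbours came from GENCODE M21, matched on identifiers without version for 42462 of 43346 genes. The members and gene lists were chosen with earlier results of these data known. Expected counts were rounded, spike-ins (2.177% of counts in replicate 1 and 1.595% in replicate 2) and numbered features left out, and log2 ratios computed with edgeR 4.0.16 (TMM, prior count 0.5); no test was made. Exact 95% binomial intervals of the ratios cover counting error only. On simulated counts the ratio step was checked and recovered the changed genes. 31-mers were compared on both strands of GENCODE M21 transcripts. DESeq2 1.42.0 size factors, spike-in totals, TPM ratios and other limits were alternatives. Named were the 20 highest genes, those over 2-fold apart, microRNA hosts, the 15 highest head-to-head genes (1 pair is not reported here), listed genes and 3 on each side of the limit; others, named for an overlap, a position or an annotation, were chosen after their values were seen. Groups came from the labels, and the replicate number from the same labels.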

Additional observations from a re-analysis of the deposited data

How the results depend on the processing

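The number of genes was 97; it was 286 with a limit of 1 TPM and 57 with a limit of 10 TPM, and 97 and 95 from a single replicate. The 2 genes over 2-fold apart became 4 with spike-in totals, 9 among genes of 1 TPM or more, 504 with no filter on low values and 0 among genes with under 50% of their 31-mers shared, a choice made after seeing the data. Spike-in totals moved the log2 ratio of all genes by -0.45, and the median log2 ratio of the 97 genes to -0.543; under that scaling the log2 ratio of all 43 named genes tried moved by more than its counting interval, in the same direction. The count of genes over their neighbour (49) was 49 without either replicate. Head-to-head genes numbered 61 among lincRNA genes of 1 TPM or more. The share of Malat1, 38.38% of summed mean TPM, ran from 37.69% to 39.14% by replicate, was 12.52% by expected counts and, chosen after seeing the data, 4.343% by reads per kilobase of the longest transcript and 60.53% without Gm42418 and Gm26917. Genes with a leading transcript numbered 16 at 90%, 25 at 75%, and 16 to 17 by replicate. The cause of these shifts was not tested beyond what each setting itself changes. No paired analysis was possible because there is 1 group. Depth limits the genes with few counts: the lowest, Gm13166, had 32.84 and 43.57 counts.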
